A study of Mus musculus with 6 samples.

Results

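The killer lectin and NK receptor genes are 10 genes best known from natural killer (NK) cells and cytotoxic T cells: Klrg1, Klrd1, Klrk1, Klrc1, Klrb1c, Ncr1, Nkg7, Ccl5, Il2rb and Xcl1. They were followed here in sorted regulatory T cells (Tregs) through every probe set whose platform annotation gave 1 of these symbols alone. That gave 11 probe sets for 9 of the 10 genes, out of 45037 probe sets and 18193 genes measured. Klrc1 and Il2rb had 2 probe sets each. Klrb1c, which encodes the NK1.1 antigen of C57BL/6 mice, shared its probe set with Klrb1b and therefore has no value of its own.

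Each of 6 Affymetrix M430v2 arrays carried RNA from splenic Tregs of 1 female NOD mouse, 3 mice in each of 2 groups. In the treated group the mice had the genotype BDC2.5 TCR tg RAG1o/o Foxp3GFP, and KT3, an anti-CD3 antibody, had been given into a vein at 37.5 µg a day on 5 days in a row, the first at an age of 17 days. Their ages at sorting were 29, 29 and 28 days, which the labels give as 12, 12 and 11 days after treatment. By these ages, that count runs from the first injection, not from the last. In the untreated group the genotype was BDC2.5 TCR tg RAG1+/o Foxp3GFP and the ages were 29, 28 and 28 days. Both groups thus shared the NOD background, the transgenic BDC2.5 receptor and the GFP reporter of Foxp3, and both were sorted as CD4+ GFP+ cells negative for B220, CD8a and CD11b/c. The RAG1 genotype and the antibody differed together, so the part of each cannot be told apart. A mouse without RAG1 rearranges no receptor genes of its own and makes no B cells, while its NK and myeloid cells develop. With 1 receptor in all cells it models a clonal, not a diverse, T cell population.

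Killer lectin receptors are C-type lectin-like proteins on NK cells and experienced T cells that read the surface of neighbouring cells. Inhibitory members (Klrg1, and Klrd1 paired with Klrc1) carry or join tails that recruit phosphatases, whereas activating members (Klrk1) and the immunoglobulin-like receptor Ncr1 signal through small adaptors. In Tregs, Klrg1 is known as a marker of terminally differentiated, tissue-seeking effector cells, and Il2rb is part of the IL-2 receptor on which Tregs depend.

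Values are RMA values on the log2 scale. Differences are treated minus untreated with their 95% intervals, means are given ± SD (n = 3 mice per group), and p-values come from limma, adjusted over all 45037 probe sets. Array medians lay between 6.41 and 6.53, and 5 of the 11 probe sets averaged under 6.5, so much of the set sat at or below the middle of the array. Foxp3 was at 11.43, 11.46 and 12.44 in treated and 10.75, 9.95 and 11.07 in untreated Tregs, and Cd3e lay between 11.62 and 12.16 on all arrays, so the sorted cells carried the transcripts that define them. Rag1 was at 6.68, 5.23 and 4.93 in treated and at 7.61, 7.30 and 5.47 in untreated samples.

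Untreated replicate 3 was the lowest array in the means of the myeloid, NK, erythroid and platelet, CD8 T cell and NKT cell markers. Its mean of erythroid and platelet markers was 6.89, against 7.95 to 8.82 on the other arrays. For CD8 T cell markers it was 6.81 (7.5 to 8.01 on the others) and for NKT markers 8.79 (8.9 to 9.27). These 2 lists were mixed: that array was the lowest for 6 of 10 CD8 T cell and 3 of 8 NKT markers. It was the highest for Cd8b1 (6.30), Zbtb16 (6.29), Slamf6 (12.84) and Cxcr6 (8.43). Plac8, an NKT marker, was at 9.21 there and at 10.61 to 12.33 on the others. In T cell markers that array was the highest, at 11.71, against 10.56 to 11.54. Untreated replicates 1 and 2 were the high arrays in B cell markers. The mean of 31 myeloid markers was 9.56, 8.51 and 9.38 in treated samples, against 9.10, 9.23 and 6.76 in untreated ones. The mean of 18 B cell markers was 6.88, 6.73 and 6.71 in treated and 9.87, 9.90 and 7.16 in untreated samples. The mean of 17 measured NK markers was 7.58, 7.25 and 7.24 in treated and 7.51, 7.72 and 6.33 in untreated samples, and for 14 of these 17 genes untreated replicate 3 was the lowest untreated array. Several of the genes described here (Ncr1, Klrk1 and Klrd1) are themselves in that NK list. Klrd1, Nkg7, Ccl5 and Xcl1 are in the CD8 T cell list, and Il2rb is in the NKT list. The 14 Treg markers averaged 9.91, 10.09 and 10.45 in treated and 10.52, 10.27 and 10.90 in untreated samples, highest in untreated replicate 3. This list was mixed, with 7 genes above 0, 7 below and a median difference of −0.01. At an unadjusted limma p under 0.05, 4 were lower and 1 was higher. The lower ones were Gpr83 (−2.76), Ikzf4 (−2.44), Socs2 (−1.61) and Cd83 (−1.51), and the higher one was Foxp3 (1.19). RMA values have no true zero, so no marker can be read as absent. In sorted bulk RNA, fewer cells of a type and less RNA per cell cannot be told apart. The difference of each of the 11 probe sets is given with and without untreated replicate 3.

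None of the 11 probe sets differed between the groups by limma. The share of all probe sets past an adjusted p of 0.05 was 0%, that is 0 of 45037, with 2037 (4.52%) at an unadjusted p under 0.05, a level that 0 of the 11 reached. The adjusted p of the 11 ran from 0.961 to 0.974. Differences were above 0 for 7 probe sets and below 0 for 4, with a median of 0.31, beside a median of 0.05 over all probe sets, of which 58.0% were above 0. The groups did not overlap in 1 of the 11, Klrg1, where 10.2% of all probe sets had groups that did not overlap, so the count of members was close to that background. Untreated replicate 3 was the lowest of the 6 arrays in 7 of the 11 probe sets, and in 12.0% of all probe sets.

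**Figure D1:**
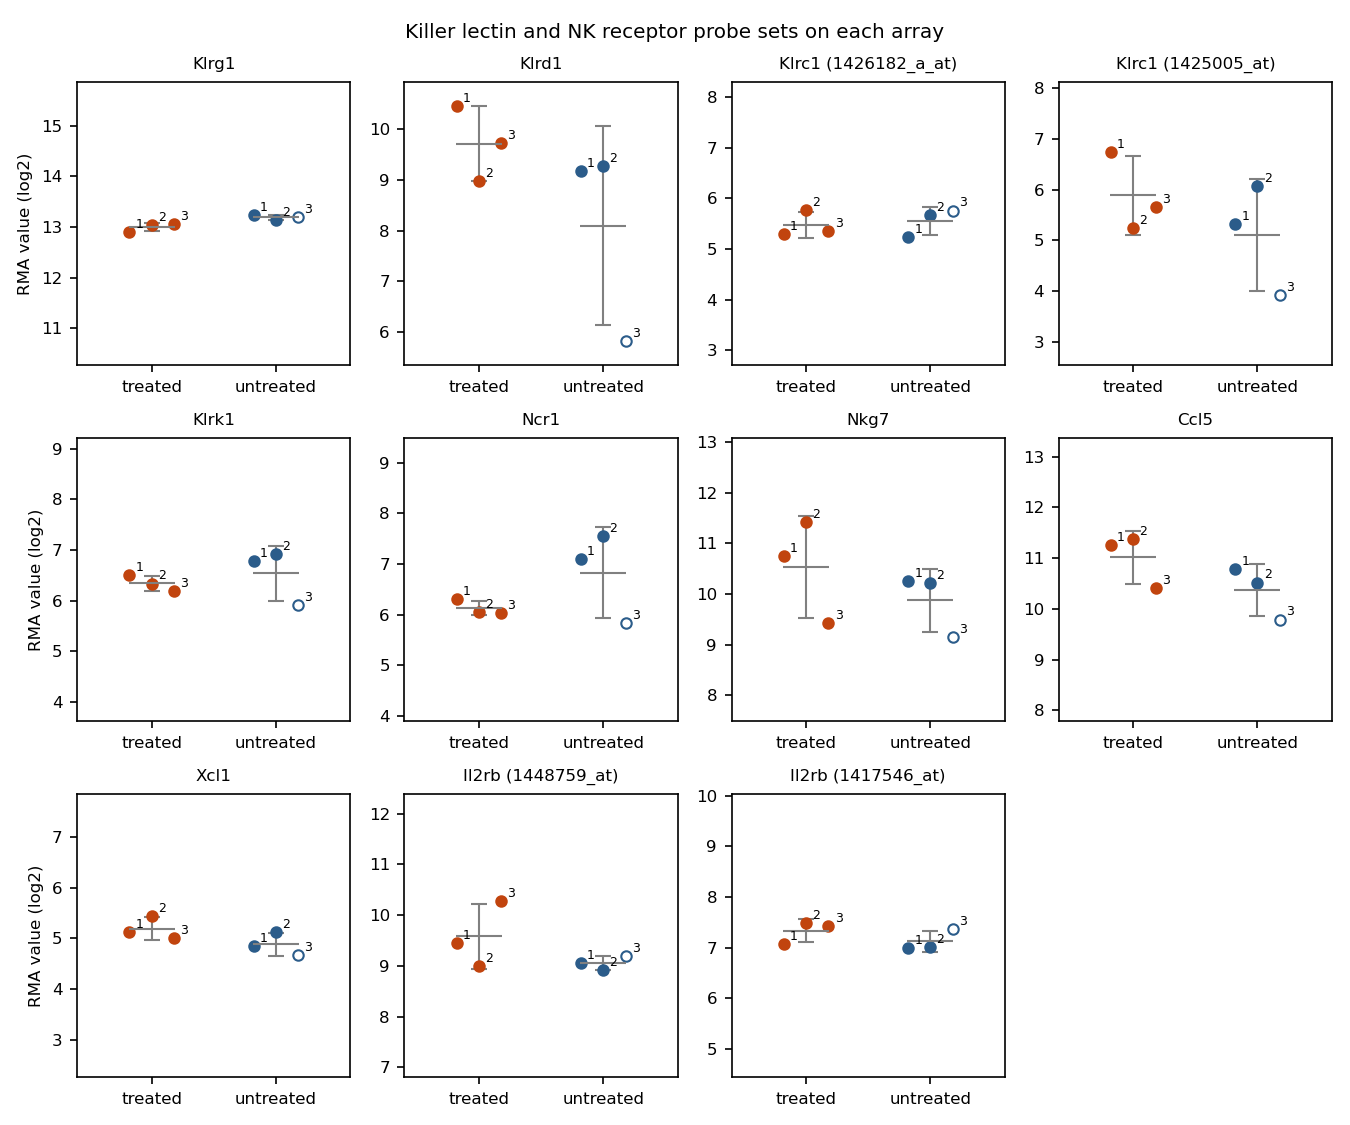
Log2 RMA value of each probe set on each array, treated mice left and untreated mice right, with replicate numbers beside the points; bars are mean ± SD (n = 3), every panel spans the same number of log2 units, and the open circle is untreated replicate 3. Klrg1 lies between 12.90 and 13.24 on all arrays, while Klrd1 is at 5.83 in untreated replicate 3 and between 8.97 and 10.45 elsewhere.

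Klrg1, an inhibitory receptor for E-cadherin and related cadherins, was steady across the mice. It measured 12.90, 13.03 and 13.06 in treated Tregs, against 13.24, 13.14 and 13.19 in untreated Tregs. Every treated value lay below every untreated value, but by a small margin, and untreated replicate 3 was no exception here. The difference was −0.20 (95% interval −0.54 to 0.15, adjusted p = 0.961), with group means of 12.99 ± 0.08 in treated and 13.19 ± 0.05 in untreated Tregs, and −0.20 (interval −0.65 to 0.26) without untreated replicate 3. The span over all 6 arrays was 0.34, the smallest among the 11 probe sets.

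Klrd1, encoding CD94, the chain that the NKG2 proteins need to reach the cell surface, varied most. It measured 10.45, 8.97 and 9.72 in treated Tregs, against 9.18, 9.28 and 5.83 in untreated Tregs. The 3 treated arrays and untreated replicates 1 and 2 overlapped, and untreated replicate 3 lay far below (−3.40 from the mean of the other untreated arrays). The difference of 1.62 (3.07-fold, interval −0.54 to 3.78, adjusted p = 0.961) shrank to 0.49 (interval −0.52 to 1.49) without that array. The same array had the lowest myeloid, NK, erythroid and platelet, CD8 T cell and NKT marker means, given above. Klrd1 is itself in the NK and CD8 T cell lists, so its low value there lowers their means. Cd8a and Cd8b1 were not low in that array (6.97 and 6.30, against 6.83 to 7.16 and 6.04 to 6.21 on the others). The part of any of these cell types in the Klrd1 value was not tested.

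Klrc1 encodes NKG2A, the inhibitory partner of CD94 that recognises the nonclassical molecule Qa-1. Its probe set 1425005_at measured 6.75, 5.25 and 5.66 in treated Tregs, against 5.32, 6.08 and 3.92 in untreated Tregs, with untreated replicate 3 again lowest. The other, 1426182_a_at, measured 5.30, 5.77 and 5.35 in treated and 5.24, 5.67 and 5.76 in untreated Tregs, and here untreated replicate 3 was not low. Both averaged below the array medians. Their differences were 0.78 (interval −0.62 to 2.19) and −0.08 (interval −0.59 to 0.42), so the 2 probe sets of the gene did not share a sign, and neither passed (adjusted p = 0.961 and 0.974). Without untreated replicate 3 they were 0.19 and 0.02. Klrc1 has close relatives in Klrc2 and Klrc3, which lie near it on chromosome 6 in the RefSeq annotation of GRCm38.p6, and signal from such copies cannot be separated here.

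The 2 activating receptors had their highest values in untreated replicates 1 and 2. Ncr1, the receptor NKp46 and a defining marker of NK cells, measured 6.30, 6.06 and 6.04 in treated Tregs, against 7.09, 7.56 and 5.83 in untreated Tregs. The treated arrays were close together, a little under the array medians, and untreated replicate 3 lay below all of them. Klrk1, encoding NKG2D, which binds stress-induced relatives of class I molecules, measured 6.5, 6.34 and 6.20 in treated Tregs, against 6.78, 6.92 and 5.92 in untreated Tregs. Their order over the arrays was alike (r = 0.94 across the 6 arrays, a description over both groups). With all arrays the difference was −0.69 for Ncr1 (interval −1.67 to 0.29) and −0.19 for Klrk1 (interval −0.86 to 0.47), with adjusted p of 0.961 and 0.962. Without untreated replicate 3, Ncr1 differed by −1.19 (interval −1.74 to −0.63, limma adjusted p = 0.416) and Klrk1 by −0.51 (interval −0.99 to −0.02, adjusted p = 0.891). Without untreated replicate 2, in contrast, Ncr1 differed by −0.32 and Klrk1 by 0.0. In the fit without untreated replicate 3, Ncr1 and Klrk1 were the 2 of 11 probe sets at an unadjusted p under 0.05, a level that 5.50% of all probe sets reached there. In the same fit 59 probe sets, 0.131% of all, passed an adjusted p of 0.05, with 0 of the 11 among them. Untreated replicates 1 and 2 were also the arrays with B cell marker means of 9.87 and 9.90, the treated arrays having 6.71 to 6.88. The part of those cells in the Ncr1 and Klrk1 values was not tested.

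**Figure D2:**
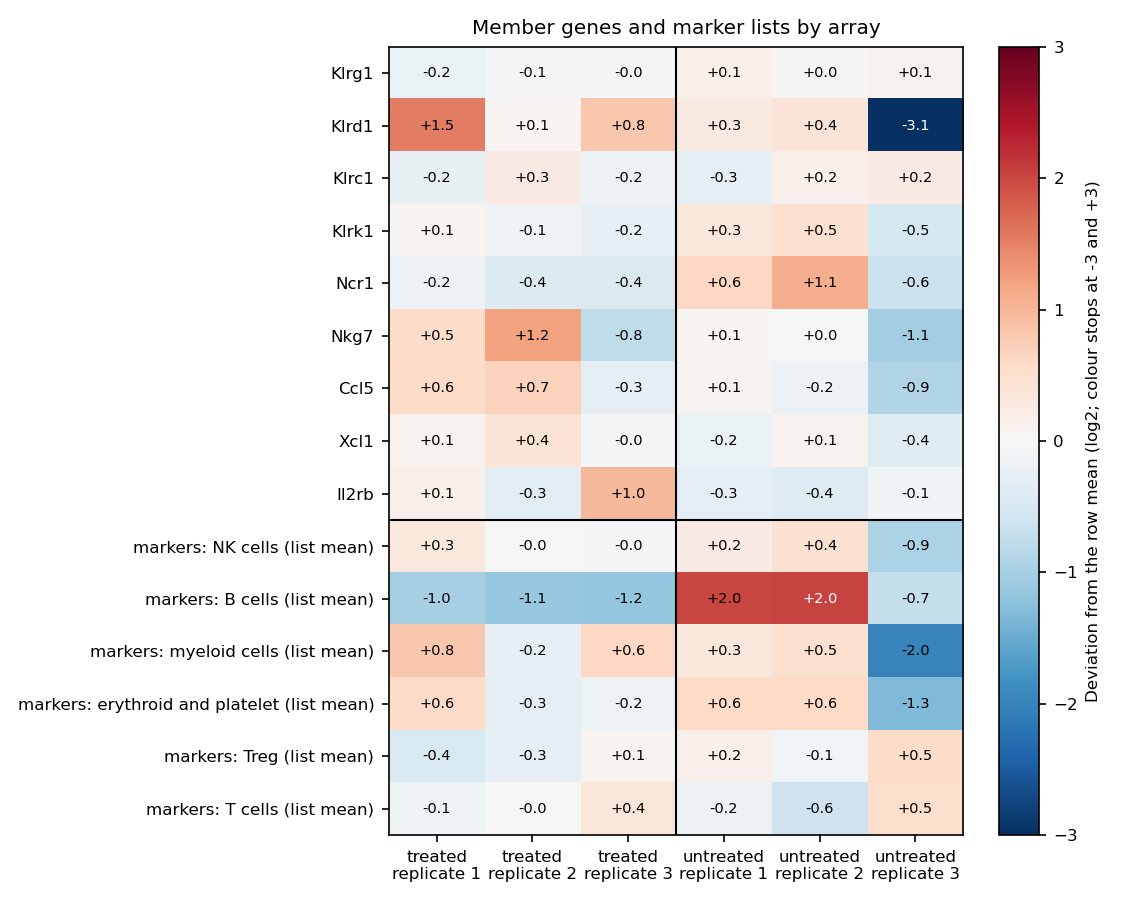
Deviation of each gene (its brighter probe set) and of each marker list mean from its own mean over the 6 arrays, in log2 units, with treated arrays left of the line and untreated arrays right of it. Untreated replicate 3 is 3.1 below the row mean for Klrd1 and 2.0 below it for myeloid markers, and untreated replicates 1 and 2 are 2.0 above it for B cell markers.

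Nkg7, Ccl5 and Xcl1, products that cytotoxic cells store or secrete, followed one another across the arrays (r = 0.94 for Nkg7 with Ccl5, 0.85 for Nkg7 with Xcl1 and 0.81 for Ccl5 with Xcl1, over 6 arrays of both groups). Nkg7, a membrane protein of cytotoxic granules, measured 10.75, 11.42 and 9.43 in treated Tregs, against 10.26, 10.21 and 9.15 in untreated Tregs. Treated replicate 3 lay below untreated replicates 1 and 2, so the groups overlapped, and the difference was 0.66 (interval −0.60 to 1.92, adjusted p = 0.961). Without untreated replicate 3 it was 0.29 (interval −1.01 to 1.6), without treated replicate 2 it was 0.21, without treated replicate 3 it was 1.21, and with age as a covariate it was 0.28.

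Ccl5, the chemokine RANTES, which draws T cells and other leukocytes, measured 11.26, 11.37 and 10.42 in treated Tregs, against 10.78, 10.52 and 9.79 in untreated Tregs. Treated replicates 1 and 2 were above all untreated arrays, and treated replicate 3 was not. The means were 11.02 ± 0.52 in treated and 10.36 ± 0.51 in untreated Tregs, a difference of 0.65 (1.57-fold, interval −0.16 to 1.46, adjusted p = 0.961), and 0.37 (interval −0.41 to 1.15) without untreated replicate 3. Xcl1, lymphotactin, the ligand of Xcr1 on cross-presenting dendritic cells, measured 5.13, 5.44 and 5.00 in treated Tregs, against 4.84, 5.13 and 4.67 in untreated Tregs. All 6 values were under the lower quartile or little above it (5.13 to 5.33 by array). The difference of 0.31 (interval −0.16 to 0.78, adjusted p = 0.961), or 0.21 (interval −0.34 to 0.76) without untreated replicate 3, is thus between dim values. In Nkg7, Ccl5 and Xcl1 alike the lowest array of each group was its replicate 3.

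Upstream sequence was at hand for 6 of the 10 genes in RefSeq's GRCm38.p6 promoter table, and 4 are printed: Nkg7 and Xcl1 because, of the 6, these held the letters of both motifs searched, and Ncr1 and Klrk1 because they are the activating receptors. The windows of Ncr1, Klrk1, Klrc1 and Klrb1c held the Runx letters alone. Each run is the 250 bases before the gene's start, 5′ to 3′ on the gene's strand. Ncr1 had another annotated start, whose window (chr7:4337474-4337723) held the same Runx matches and is not printed. Capitals mark GGTGTGA, a core bound by T-box factors such as T-bet and Eomes, and TGTGGT, a core bound by Runx factors, on either strand (read as TCACACC and ACCACA on the opposite strand). No match of one motif overlapped a match of the other in these genes.
Nkg7: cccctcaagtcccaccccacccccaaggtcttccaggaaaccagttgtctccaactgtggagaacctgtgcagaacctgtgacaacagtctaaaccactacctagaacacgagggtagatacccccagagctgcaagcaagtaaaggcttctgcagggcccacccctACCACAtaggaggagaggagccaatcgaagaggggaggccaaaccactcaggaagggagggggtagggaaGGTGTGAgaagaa
Xcl1: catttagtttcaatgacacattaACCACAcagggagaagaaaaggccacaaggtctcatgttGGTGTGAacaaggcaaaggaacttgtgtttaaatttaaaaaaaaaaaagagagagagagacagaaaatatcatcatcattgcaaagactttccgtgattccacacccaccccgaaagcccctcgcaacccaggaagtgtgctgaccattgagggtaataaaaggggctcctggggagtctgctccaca
Ncr1: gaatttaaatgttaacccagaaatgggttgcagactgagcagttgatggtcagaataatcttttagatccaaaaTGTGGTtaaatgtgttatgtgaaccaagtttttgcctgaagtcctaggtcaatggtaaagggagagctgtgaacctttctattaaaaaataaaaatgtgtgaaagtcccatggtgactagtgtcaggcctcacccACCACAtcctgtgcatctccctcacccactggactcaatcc
Klrk1: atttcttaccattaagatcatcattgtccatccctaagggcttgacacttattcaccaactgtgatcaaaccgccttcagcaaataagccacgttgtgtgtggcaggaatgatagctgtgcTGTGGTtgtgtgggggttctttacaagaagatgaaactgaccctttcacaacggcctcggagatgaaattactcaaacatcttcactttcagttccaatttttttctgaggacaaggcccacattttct
The windows lie at chr7:43436888-43437137 (plus strand), chr1:164935523-164935772 (minus strand), chr7:4337465-4337714 (plus strand) and chr6:129623865-129624114 (minus strand). The T-box letters stood in the windows of Nkg7 and Xcl1 and in 3.33% of 32851 mouse promoters, and the Runx letters in those of all 6 genes and in 14.0% of promoters. The motifs were picked with these sequences in view, so the shares are a description. Tbx21, encoding T-bet, was at 7.67, 7.17 and 7.53 in treated and 7.25, 7.35 and 6.18 in untreated Tregs. Eomes was at 9.44, 8.43 and 9.02 in treated and 7.91, 8.96 and 6.36 in untreated Tregs, and Runx3 at 8.44, 9.0 and 8.74 against 8.61, 8.18 and 8.20. None of the 3 passed the test, and both T-box genes were lowest in untreated replicate 3.

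Il2rb, the beta chain that IL-2 and IL-15 share, had 2 probe sets. Its brighter probe set, 1448759_at, measured 9.46, 9.0 and 10.28 in treated Tregs, against 9.05, 8.92 and 9.20 in untreated Tregs, and the other, 1417546_at, 7.08, 7.49 and 7.43 against 6.99, 7.02 and 7.36. Untreated replicate 3 was the highest untreated array in both. Treated replicate 3 was the highest of all for the first and treated replicate 2 for the second. Differences were 0.52 (interval −0.23 to 1.27) and 0.21 (interval −0.24 to 0.66), both with an adjusted p of 0.961, and 0.59 and 0.33 without untreated replicate 3. Without treated replicate 3 the brighter one differed by 0.17.

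**Figure D3:**
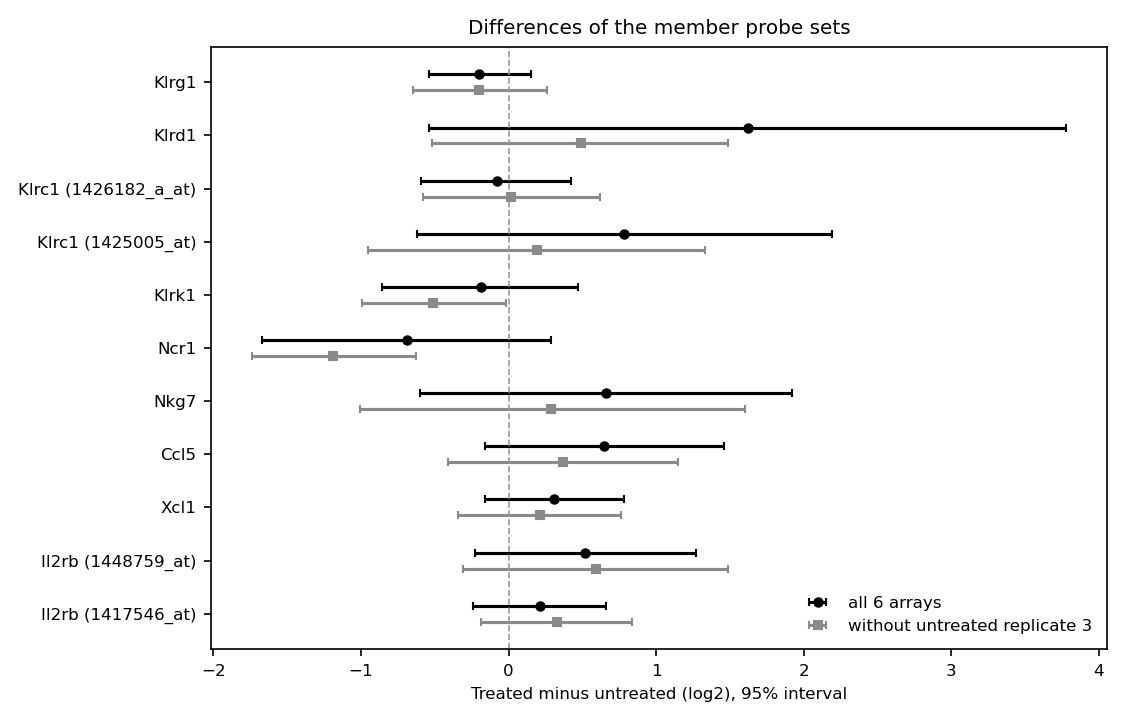
Treated minus untreated difference of each probe set in log2 units with its 95% interval, from all 6 arrays (black circles) and without untreated replicate 3 (grey squares). With all arrays every interval spans 0, and without that array the intervals of Ncr1 (−1.74 to −0.63) and Klrk1 (−0.99 to −0.02) lie below 0 before adjustment.

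The shared probe set of Klrb1b and Klrb1c measured 6.85, 7.61 and 6.63 in treated Tregs, against 7.13, 7.27 and 6.5 in untreated Tregs, a difference of 0.06 (interval −0.69 to 0.81). It cannot be assigned to either gene, and the groups overlapped.

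The genes whose pattern was most like each of the 9 were sought among 7350 probe sets with a mean of at least 7 and a span of at least 1, for the 6 genes whose brighter probe set spanned 1 or more. Klrc1 was left out by this rule, although its dimmer probe set spanned 2.83. With 6 arrays from both groups, and so many candidates, high correlations are easily found, and they are given as descriptions. Klrd1 was closest to Tbx21 (r = 0.996) and to the gelatinase gene Mmp9 (0.993). Without untreated replicate 3 these were 0.97 and 0.93 over 5 arrays. Ncr1 was closest to the ubiquitin ligase gene Nedd4 (0.995) and Ccdc50 (0.993), and Klrk1 to the deubiquitinase gene Usp46 (0.995) and to Marcks (0.994), a substrate of protein kinase C. Nkg7 was closest to Klhdc2 (0.962) and Epc1 (0.958), and Ccl5 to Crispld2 (0.948) and to Nfatc1 (0.945), a transcription factor of activated T cells. Il2rb was closest to the lipid phosphatase gene Mtmr3 (0.997) and the lysosomal phosphatase gene Acp2 (0.996). No gene appears among the closest of more than 1 of these 6.

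Related genes were counted by list, each gene through its brightest probe set and with p-values adjusted over 18193 genes. Over all genes 1.75% were higher and 3.06% lower in treated Tregs at an unadjusted p under 0.05, and the median difference was 0.05. No gene of the 8 lists passed an adjusted p of 0.05 with all arrays. Among 12 other killer lectin receptors 0 were higher and 0 lower at an unadjusted p under 0.05, with a median of 0.15. Klra5, of the Ly49 family, differed by 0.70, Klra2 by 0.31 and Klrb1b, an inhibitory receptor for Clec2d, by −0.52, though 1 of the 5 probe sets of Klrb1b lay on the other side of 0. Without untreated replicate 3 Klra5 differed by 0.40, and without untreated replicate 2 Klrb1b differed by −0.04. In 9 of the 12, untreated replicate 3 was the lowest untreated array, and without it the median was −0.03.

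Among 14 adaptors and signalling genes 2 were higher and 0 lower at that level, and the median was 0.43, or 0.29 without untreated replicate 3. These were Cd247, the zeta chain that serves both the T cell receptor and Ncr1 (11.39, 11.72 and 12.43 in treated, against 10.30, 10.80 and 11.29 in untreated Tregs, difference 1.05), and Zap70, the kinase it recruits (0.83). All treated values of both lay above all untreated values, with adjusted p of 0.925. With its 4 probe sets averaged Cd247 differed by 0.34, and without untreated replicate 2 Zap70 differed by 0.52. Fcer1g, an adaptor of NK and myeloid receptors, differed by 1.11, and by 0.28 without untreated replicate 3. Hcst, the DAP10 adaptor of Klrk1, was at 11.07, 11.50 and 9.03 in treated and 10.31, 9.01 and 10.17 in untreated Tregs. Tyrobp, the DAP12 adaptor, was at 10.49, 8.98 and 9.63 in treated and 10.09, 9.15 and 6.63 in untreated Tregs. Hcst and Tyrobp were named for their role, with their values known.

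Among 11 ligands of killer lectin receptors 0 were higher and 1 was lower, Clec2i, a ligand of mouse Nkrp1 receptors (5.98, 5.87 and 6.0 in treated, against 6.51, 6.44 and 6.45 in untreated Tregs, difference −0.52, adjusted p = 0.925). Clec2d differed by 1.11 and the Klrg1 ligand Cdh1 by 0.65. Without treated replicate 2 or 3, Clec2d differed by 0.67 or 1.83. Cdh1 differed by 0.33 without treated replicate 3 and by 0.05 with array weights. Among 11 chemokine partners 0 were higher and 1 was lower, Ccr3, a receptor of Ccl5 (5.64, 6.15 and 5.88 in treated, against 6.68, 6.53 and 7.62 in untreated Tregs, difference −1.05). Xcr1 differed by −0.31, and by −0.14 without untreated replicate 2. Ccr4 differed by −0.27, and by −0.01 without untreated replicate 3. The medians of the ligand and chemokine lists were 0.01 and −0.02.

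Among 12 genes of the IL-2 and IL-15 receptor system 0 were higher and 1 was lower, the cytokine receptor gene Il21r (−0.44). Jak3, the kinase of the common gamma chain, differed by 0.70 and Il15 by 0.46, and the list median was 0.04. Without treated replicate 3 Jak3 differed by 0.31, and without untreated replicate 3 Il15 differed by 0.14. Among 14 transcription factors of NK and effector lymphocytes 1 was higher and 0 were lower. This was Nfil3, needed for NK development, at 7.70, 7.56 and 8.54 in treated, against 6.95, 6.91 and 7.38 in untreated Tregs (difference 0.86). Nfil3 differed by 0.55 without treated replicate 3. Tox2 differed by 0.58, and by 0.33 without untreated replicate 2. Eomes differed by 1.22, and by 0.53 without untreated replicate 3, and the list median was 0.30.

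Among 15 genes of the cytotoxic granule list, which also holds the death ligand gene Tnfsf10, 0 were higher and 4 were lower. These were Gzmk (−0.84), Gzma (−1.99), Tnfsf10 (−0.96) and Gzmb (−0.78), and the list median was 0.04. Without untreated replicate 3, Gzma differed by −2.46 and passed over all genes (limma adjusted p = 0.0256). Without untreated replicate 2, Tnfsf10 differed by −0.60. Gzmb was singled out because it completes the count. Its unadjusted limma p was 0.0499, its groups overlapped, and without untreated replicate 3 it differed by −0.64. Among 18 other NK receptors and co-receptors 1 was higher, Cd7 (9.45, 9.34 and 10.04 in treated, against 8.82, 8.09 and 8.85 in untreated Tregs, difference 1.02), and 0 were lower. Cd69 differed by −0.48, and by −0.23 without untreated replicate 3. Cd160 differed by 0.39, and by 0.80 with its probe sets averaged, and the list median was 0.11.

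**Figure D4:**
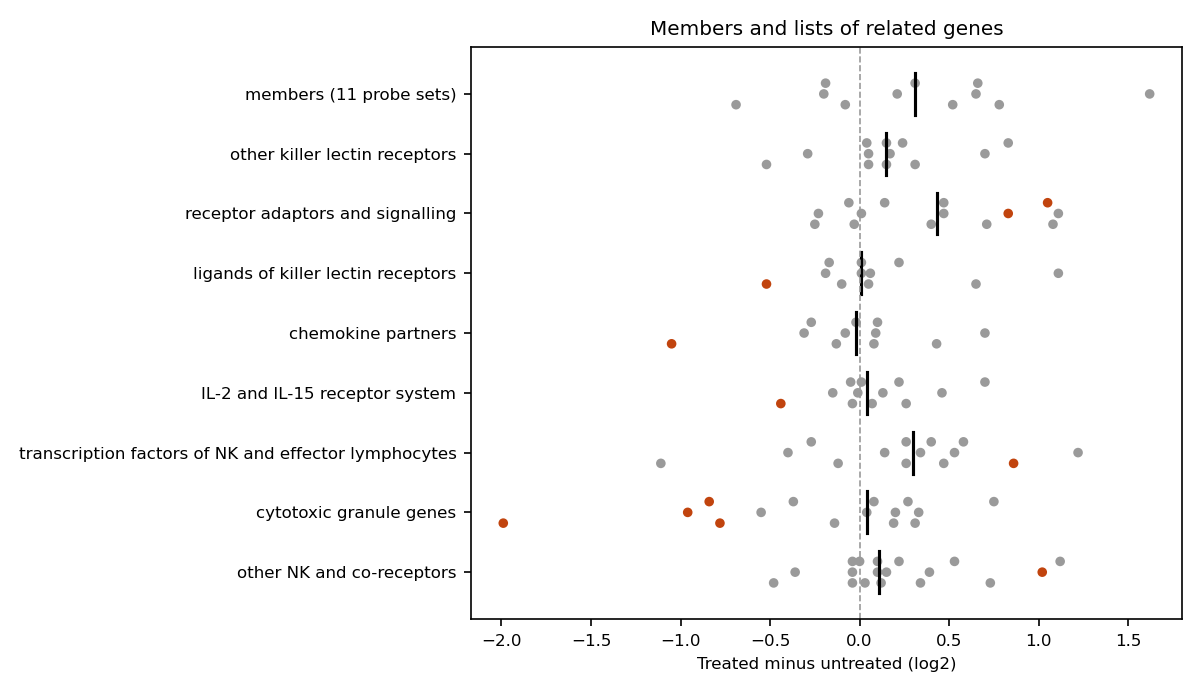
Treated minus untreated difference in log2 units of the 11 probe sets and of the genes of 8 related lists (1 point per gene, vertical bars at list medians); orange points have an unadjusted p under 0.05 and none has an adjusted p under 0.05. The list medians run from −0.02 for chemokine partners to 0.43 for adaptors and signalling genes.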

How the data were processed

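Expression was measured on 6 Affymetrix M430v2 arrays with 1 mouse per array. Per the labels' protocols, RNA was taken up in Trizol and amplified in 2 rounds, which can strengthen 3′ bias. Per the series' design text and the submitters' processing notes, the authors ran RMA in GenePattern on the raw data. The version was not given in the sources used here. Deposited were linear RMA intensity values from 5.47 to 29584.9, already background-corrected, normalized between arrays and summarised per probe set, so a shift common to most transcripts could not be seen. The number of arrays limits the precision.

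Log2 was taken and 64 control probe sets were left out. All 45037 probe sets were fitted with limma 3.58.1 in R 4.3.3 (lmFit, eBayes) on 3 against 3 arrays without covariates, with Benjamini-Hochberg adjustment over all of them at 0.05. Of these, 34945 had 1 symbol (34741 matched by gene identifier to the GRCm38.p6 RefSeq table), 932 had several and 9160 had none. Lists used the brightest probe set of each of 18193 genes, in a fit of its own. Named were every member, 3 or 4 genes of each related list with the smallest p, and the 2 genes with the highest correlation to each member whose brighter probe set spanned at least 1; Hcst and Tyrobp were added for their role. On data simulated for this comparison with normal noise over 45037 probe sets, the fit called 18% of probe sets altered 2-fold and 70% of those altered 4-fold. It called 96% of those altered 8-fold and 92% of those altered 16-fold, beside 4 false calls. The share did not rise from 8-fold to 16-fold, so these shares are rough. The simulated noise was independent between probe sets, had the same SD in both groups and held no outlying array. In these data Klrd1 had an SD of 0.74 in treated and 1.96 in untreated Tregs. The B cell marker Ms4a1 differed by −5.13 and did not pass (limma adjusted p = 0.925 over genes). The shares can thus overstate what this comparison detects. The members and lists were chosen with earlier results of these data known. P-values rest on the spread between the arrays of a group. With 1 array per mouse, differences between mice, in sorting and in amplification cannot be told apart in that spread. Figures were drawn with matplotlib 3.10.9.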

Additional observations from a re-analysis of the deposited data

How the results depend on the processing

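No alternative brought any of the 11 probe sets past the threshold: their adjusted p was at least 0.416 in each. Over all probe sets the count of 0 became 5 with array weights (1 higher, 4 lower) and 59 without untreated replicate 3 (2 higher, 57 lower), a range of 0 to 59 over the arrays left out in turn, and the cause was not tested. It stayed 0 with the replicate number as a block, age as a covariate, quantile normalization, median centring, a mean of at least 6.5 (which 6 of the 11 passed), the brightest or the mean of the probe sets of a gene, eBayes with trend and robust, and an adjusted p of 0.1. The Klrc1 probe set 1426182_a_at, at −0.08, turned to 0.35 when the probe sets of the gene were averaged, and ranged from −0.24 to 0.02 over the arrays left out in turn. None of the other 10 probe sets turned to the other side of 0 under these alternatives, but without untreated replicate 2 Klrk1 came to 0.0, against −0.19 with all arrays, and Ncr1 to −0.32, against −0.69. Leaving out untreated replicate 3 took Klrd1 to 0.49, and leaving out 1 of the other untreated arrays took it to 2.16 or 2.21. The median of the cytotoxic granule list was −0.04 with probe sets averaged per gene.

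The deviations of same-numbered samples from their group means correlated at 0.45, 0.08 and 0.09 for numbers 1, 2 and 3. Between samples of different numbers the correlations ran from −0.38 to 0.17. With 3 arrays per group this cannot decide whether the numbers mark pairs. No label says that they do, so the main fit leaves them unpaired and the block is given as an alternative. Same-numbered arrays have neighbouring array file numbers. With the replicate block no probe set passed (0 calls, as without it). At an unadjusted p under 0.05 it gave 2 of the 11, Ccl5 and Nkg7, and 3019 of all 45037 probe sets. Ccl5 differed by 0.48, 0.85 and 0.63 within the numbers (limma adjusted p = 0.733 with the block) and Nkg7 by 0.49, 1.21 and 0.27 (0.741). Xcl1 differed by 0.30, 0.31 and 0.33 (0.794) and did not reach the unadjusted level. Less even were Klrd1 (1.27, −0.31 and 3.89, adjusted p = 0.766) and Ncr1 (−0.78, −1.50 and 0.21, 0.773). The brighter Il2rb probe set differed by 0.41, 0.07 and 1.07 (0.765).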
